A study of Gallus gallus with 24 samples.

Results

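Cytosolic ribosomal protein genes were followed in the jejunum, a segment of the small intestine, of 24 chickens. The genes were taken by name: every symbol in the expression table that begins with RPL or RPS followed by a digit, with the 9 RPS6K kinases left out. This gave 68 of the 15618 genes listed. Of these, 37 carry symbols of large-subunit proteins and 24 symbols of small-subunit proteins. The 37 include RPL26, a doubtful name that is described below. A further 6 symbols (RPL3L, RPL7L1, RPL22L1, RPL26L1, RPL36AL and RPS27L) are those of paralogues or related proteins. The last, RPS19BP1, belongs to a protein that binds RPS19 and is not itself part of the ribosome. Ribosomal proteins with other symbols are named only where the list of them is described.

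The birds belonged to a pair of selection lines, HAS and LAS, which differ in the antibody response they mount against sheep red blood cells (SRBC). In each line 6 birds had received SRBC (HASI and LASI) and 6 had not (HASN and LASN), and the label of every bird gives day 5 after injection. Each bird gave 1 RNA-seq library of the whole jejunum sample. The labels give no sex, batch or date, and nothing beyond separate birds is stated about the replicates, so the tests measure the spread between the birds of a group.

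The ribosome translates mRNA into protein and is built from ribosomal RNA and a fixed set of proteins, of which the small subunit reads the mRNA and the large subunit joins amino acids. Because each ribosome holds about the same number of copies of most of these proteins, their genes are known to be regulated together, in vertebrates largely through a pyrimidine-rich start of the mRNA whose translation responds to TOR signalling. In the intestine, where the epithelium is renewed all the time and secretes and absorbs heavily, ribosomal protein mRNAs are among the most abundant.

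Values are TPM, an abundance corrected for transcript length and for the size of the library, and the depth of the libraries is unknown because the files keep no read counts. The 14 enterocyte markers found among the genes listed were all expressed, with summed levels of 30047 to 70551 TPM over the 24 libraries. Some other enterocyte symbols looked up were not found there. A span slope was computed for each library by regressing log2(TPM + 1) of genes on the log2 length of their genomic region. It is more negative where genes of long span have lower values, and it ran from -0.28 to 0.02. The share of TPM from the 13 mitochondrially encoded genes ran from 9.54% to 38.0%.

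Ribosomal protein mRNAs made up 4.41% to 8.79% of all TPM in every bird. In the HAS line the 68 genes together took 6.21% ± 1.28 in HASN and 5.90% ± 0.628 in HASI (mean ± SD, n = 6 birds each). In the LAS line they took 5.28% ± 0.789 in LASN and 6.96% ± 1.56 in LASI. The lowest, median and highest bird stood at 4.76%, 6.03% and 7.98% in HASN. The corresponding shares were 5.21%, 5.80% and 6.69% in HASI. The groups overlapped, and the widest spread lay within LASI, where the shares were 5.81%, 7.18%, 6.47%, 8.79%, 8.66% and 4.88% in replicates 1 to 6. In LASN they were 6.39%, 5.12%, 6.11%, 4.72%, 4.96% and 4.41%. LASI replicates 4 and 5 thus held the highest shares of all 24 libraries, and LASN replicate 6 the lowest.

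Both subunits followed the same course. The summed TPM of the large-subunit genes was 1.26 to 1.38 times that of the small-subunit genes in every library, with HAS means of 1.29 ± 0.0392 (HASN) and 1.32 ± 0.0242 (HASI) and LAS means of 1.31 ± 0.0475 (LASN) and 1.31 ± 0.0258 (LASI).

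**Figure D1:**
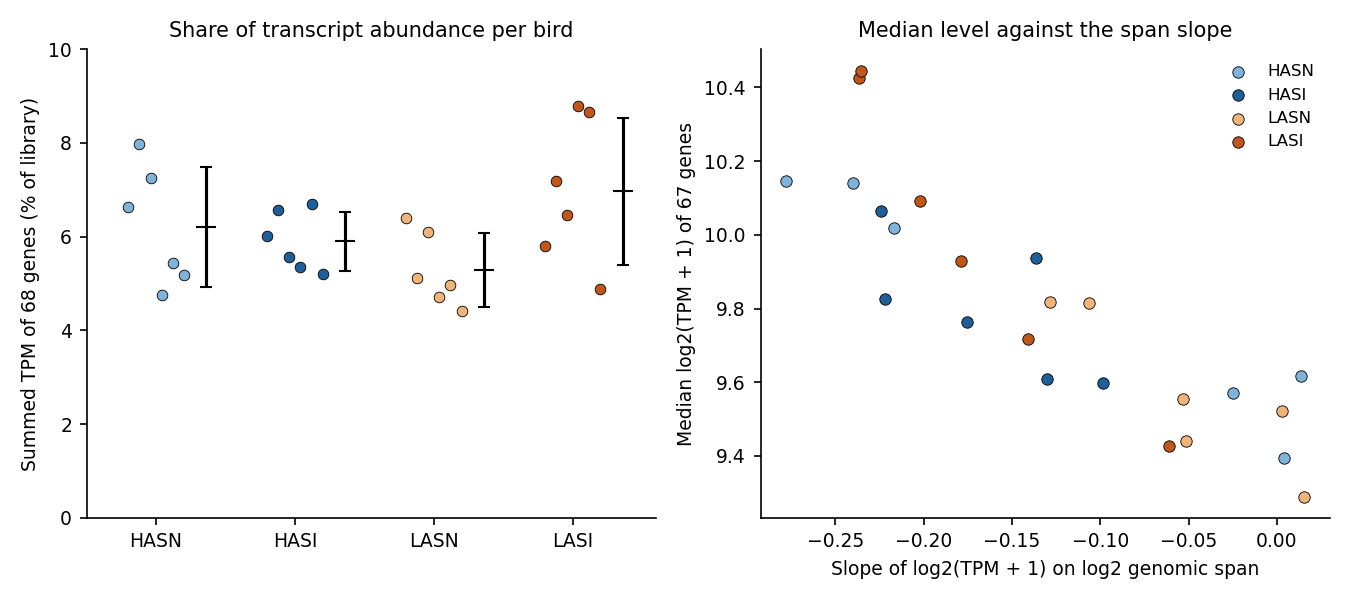
Left, the summed TPM of the 68 ribosomal protein genes as a percentage of each library, 1 point per bird, with the group mean and SD beside the points. The shares run from 4.41% to 8.79% and all 4 groups overlap. Right, the median log2(TPM + 1) of the 67 tested genes plotted against the span slope of the same library, where birds with a more negative slope show a higher median.

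Ribosomal protein genes are short, with a median genomic span of 3.77 kb against 13.1 kb over all tested genes, and their level moved with the span slope. With group means removed, the median log2(TPM + 1) of the genes and the slope had a Pearson r of -0.87 and a Spearman rho of -0.90 over 24 libraries. Within the HAS groups r was -0.97 (HASN) and -0.70 (HASI), and within the LAS groups -0.90 (LASN) and -0.97 (LASI), with n = 6 each. Both measures are computed from the same libraries, so these are descriptions. The slope averaged -0.12 ± 0.13 in HASN and -0.16 ± 0.05 in HASI. It averaged -0.05 ± 0.06 in LASN and -0.18 ± 0.07 in LASI, the LAS group with the larger share of ribosomal protein mRNA. For group comparisons in TPM, the counts of called ribosomal protein genes are therefore also given with the slope in the model. The shares over all tested genes come from the main fits without the slope. Counts with the slope, or under any other alternative setting, have no share beside them. They are therefore not shown to be particular to these genes. Lists of other genes and of cell type markers were counted without the slope. In whole tissue fewer cells of a type and less RNA per cell cannot be told apart.

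The level of the individual genes covered a wide range. Mean levels over all birds exceeded 1000 TPM for 28 genes, lay between 100 and 1000 TPM for 37 and were below 100 TPM for 3, and 21 of the genes were among the 100 most abundant of the whole table. The most abundant included RPS10 (2080 TPM), RPS20 (1944 TPM), RPS6 (1855 TPM), RPL34 (1698 TPM) and RPS2 (1695 TPM). RPS10 (ENSGALG00000002813, galGal6 chromosome 26, 4376564 to 4382087) encodes a small-subunit protein at the mRNA entry side. RPS6 is the small-subunit protein that the S6 kinases phosphorylate. Of these, all but RPL34 belong to the small subunit.

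The 6 least abundant were RPL3L (0.264 TPM), RPS19BP1 (26.8 TPM), RPL26 (93.7 TPM), RPS21 (117 TPM), RPL7L1 (166 TPM) and RPS27L (190 TPM). RPS21 (ENSGALG00000005338, chromosome 20, 7932950 to 7938510) was the only standard ribosomal protein among them, since RPL26 is a doubtful name, as described next. RPL3L, known in mammals as a muscle-restricted form of RPL3, did not reach 0.5 TPM in 6 libraries and was left out of the tests. Its partner RPL3 stood at 1249 ± 103 TPM in HASN and 1096 ± 155 TPM in HASI, and at 1198 ± 109 TPM in LASN and 1323 ± 103 TPM in LASI.

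The gene called RPL26 in the table behaved unlike the other ribosomal proteins. It is listed as ENSGALG00000049287 on chromosome 13, 9861486 to 9871095, and begins 1094 bases after the end of RPL26L1 (ENSGALG00000002868, chromosome 13, 9856065 to 9860391). In the RefSeq annotation of assembly GRCg7b the gene in that place, 1046 bases after RPL26L1, is ATP6V0E1, which encodes a subunit of the vacuolar proton pump. RefSeq lists RPL26 as a synonym of both. RPL26L1 stood at 1097 TPM on average, against 93.7 TPM for the gene called RPL26, and varied with the other ribosomal proteins (r = 0.99 with their median), whereas the gene called RPL26 did not (r = 0.06). Its values are given under the table's symbol.

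Birds that were high in 1 ribosomal protein mRNA were high in nearly all. With group means removed, the r of a gene with the median of all the others was above 0.9 for 46 of the 67 tested genes, between 0.5 and 0.9 for 15 and below 0.5 for 6, with a median of 0.95 over 24 libraries. Over the 2211 pairs of genes r ran from -0.71 to 0.99, with a median of 0.85. These correlations are across libraries that share their scaling and their span slope.

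The genes outside the common pattern were few. RPL7L1, known in mammals as a relative of RPL7 in the assembly of the large subunit, ran against the others (r = -0.56), as did RPS19BP1 (r = -0.37). RPL26 (r = 0.06), RPS6 (r = 0.26), RPL5 (r = 0.34) and RPS16 (r = 0.43) made up the rest of those below 0.5. RPL5 (chromosome 8, 14447758 to 14455256) and its partner RPL11 (r = 0.51) form, with the 5S RNA, the particle that restrains MDM2 in mammals.

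The spread within groups had a median SD of 0.28 on the log2 scale, against 0.40 over all tested genes. Measured relative to the median of the ribosomal proteins in the same library, it was 0.13, and 54 of the 67 genes had a smaller SD on that relative scale. RPL17, RPS29 and RPL38 varied most, with SDs of 0.57, 0.55 and 0.53. RPS16, RPL26 and RPL5 varied least, each at 0.14. RPS29 and RPL38 are short-span genes of 0.846 kb and 2.52 kb that moved with the rest (r = 0.93 and 0.95), while RPL17 lies on chromosome Z and is described with the Z-linked genes. Across the 67 genes the SD and the log2 span had an r of -0.45, a relation over genes, which are not independent replicates.

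**Figure D2:**
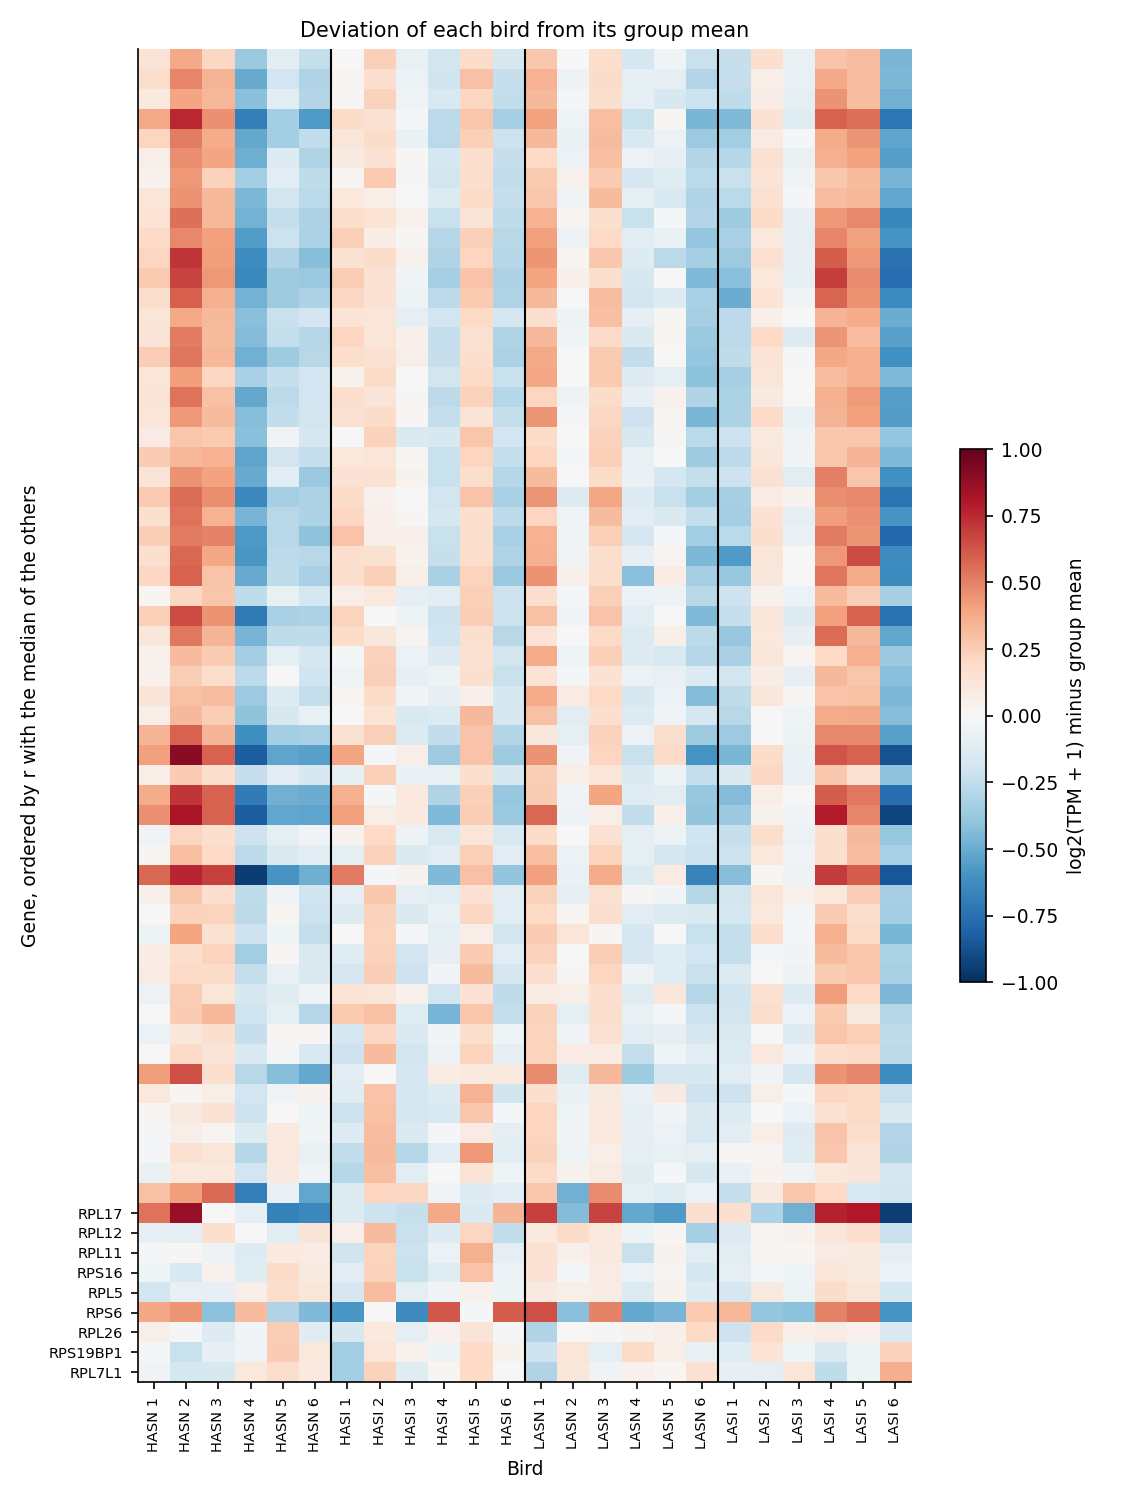
Deviation of log2(TPM + 1) from the group mean for the 67 tested ribosomal protein genes (rows, ordered by their r with the median of the other genes, with names at the rows whose r is below 0.6) in the 24 birds (columns). Most rows share 1 pattern, such as high values in HASN 2 and 3 and LASI 4 and 5 and low values in HASN 4 and LASI 6, and the rows at the bottom, among them RPS6, RPL26 and RPL7L1, do not.

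Ribosomal protein genes rose after injection in the LAS line. Of 67 tested genes, 27 were higher in LASI than in LASN at an adjusted p below 0.05 and none was lower (limma across all 13279 tested genes, two-sided, Benjamini-Hochberg). Over all tested genes 2.18% were called higher and 28.9% lower. The 27 comprised 16 of 37 large-subunit genes, 10 of 24 small-subunit genes and RPL22L1, and count the gene called RPL26 among the large subunit. The median log2 fold change over all 67 was 0.38, against -0.33 over all tested genes, and 63 of the 67 estimates were above 0. The call did not outlast the removal of LASI replicates 4 and 5, after which 0 were called, and with the span slope of each library in the model 1 was called higher and 1 lower and the median was 0.069, against -0.06 over all genes. Leaving out single libraries gave 4 (without LASI replicate 4 or 5, or LASN replicate 6) to 49 calls (without LASI replicate 6), with 5 without LASI replicate 2, 8 to 12 without LASN replicates 5, 4 or 2, and 16 without LASI replicate 3.

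RPL22L1 changed most clearly. This gene (ENSGALG00000009312, chromosome 9, 19878895 to 19880940) encodes a close relative of RPL22. In mice it is known to be repressed by RPL22 and to act in lymphocyte development. In LASN it stood at 178, 201 and 243 TPM (lowest, median, highest bird) and in LASI at 267, 329 and 390 TPM. The LAS groups did not overlap, which held for no other ribosomal protein gene and for 0.444% of all tested genes in that direction. In HASN it stood at 171, 202 and 261 TPM and in HASI at 166, 244 and 282 TPM, so that the HAS groups overlapped. The log2 fold change was 0.65 (SE 0.14, limma adjusted p = 0.00937) in LAS and 0.14 (SE 0.14, limma adjusted p = 0.538) in HAS. It kept its call with the span slope in the model (0.39, limma adjusted p = 0.0420) and lost it without LASI replicates 4 and 5 (0.56, limma adjusted p = 0.0869).

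RPL22 itself, the partner, rose from 381, 476 and 618 TPM in LASN to 441, 789 and 1090 TPM in LASI, overlapping groups with a log2 fold change of 0.65 (SE 0.21, limma adjusted p = 0.0297). Both members of the pair were thus called higher in LASI in the fit without the span slope. With the slope in the model RPL22L1 was the 1 gene called higher, so RPL22 lost its call. Without LASI replicates 4 and 5 neither was called.

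Among the small-subunit genes, RPS24 (ENSGALG00000004871, chromosome 6, 13986141 to 14015668), a protein needed for processing of the small-subunit RNA, stood at 184, 217 and 257 TPM in LASN and at 234, 340 and 412 TPM in LASI. The log2 fold change was 0.58 (SE 0.13, limma adjusted p = 0.0109). RPS15A went from 283, 365 and 458 TPM to 398, 598 and 789 TPM, a log2 fold change of 0.67 (SE 0.18, limma adjusted p = 0.0163). In both genes the lowest LASI bird lay within the LASN range. RPS10, the most abundant gene, went from 1334, 1573 and 2043 TPM to 1713, 2573 and 3092 TPM (0.58, SE 0.16, limma adjusted p = 0.0196), and RPS20 rose by 0.53 (SE 0.16, limma adjusted p = 0.0216). None of these small-subunit genes kept its call with the span slope in the model. RPS24, RPS15A, RPS10 and RPS20 were then at 0.34, 0.26, 0.19 and 0.185 (limma adjusted p = 0.0612, 0.141, 0.2145 and 0.302).

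Among the large-subunit genes, RPL21 went from 505, 643 and 689 TPM in LASN to 627, 868 and 1148 TPM in LASI (0.48, SE 0.13, limma adjusted p = 0.0170). RPL6, RPL27A, RPL7 and RPL39 rose by 0.43, 0.39, 0.36 and 0.56, with limma adjusted p-values of 0.0203, 0.0207, 0.0207 and 0.0247. All of these large-subunit genes lost their call with the span slope in the model. RPL21, RPL6, RPL27A, RPL7 and RPL39 were then at 0.26, 0.20, 0.24, 0.26 and 0.17 (limma adjusted p = 0.169, 0.241, 0.197, 0.151 and 0.408). The ribosomal stalk, whose proteins carry other symbols, moved likewise: RPLP0, RPLP1 and RPLP2 rose by 0.40, 0.60 and 0.57 (limma adjusted p = 0.0478, 0.0427 and 0.0251). In that list of 6 the other members were not called, among them FAU and GNB2L1, the table's symbol for RACK1, with log2 fold changes of 0.29 and 0.34. RPSAP58, a symbol outside that list and the naming rule, was also looked up and was called higher (0.43, limma adjusted p = 0.0396).

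Other measures of the LAS libraries were as follows. The mitochondrially encoded share was 15.0% ± 3.32 in LASN and 22.1% ± 4.05 in LASI. The summed level of the 12 crypt and cycling markers, none at 0 in every bird, was 432 to 1222 TPM in LASN and 306 to 844 TPM in LASI, and 3 of the 12 were called lower. That of the 15 smooth muscle and stroma markers was 2238 to 5593 TPM and 2375 to 11978 TPM, with 3 called lower, and that of the 11 T and cytotoxic lymphocyte markers 1300 to 1871 TPM and 1493 to 2307 TPM, with 1 called higher and 3 lower. Against these counts, 28.9% of all tested genes were called lower. Of the 5 goblet markers 2 were called lower, of the 14 enterocyte markers 2, of the 12 enteroendocrine markers 1 and of the 9 tested markers of enteric neurons and glia 1. None of the 8 tested plasma and B cell, 12 macrophage and heterophil, 8 endothelial and 3 tested erythrocyte markers was called. The part of these measures in the result was not tested. A refit without the mitochondrially encoded genes is described at the end, and it takes out only their share of the scale.

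In the HAS line no ribosomal protein gene was called between HASI and HASN by limma, where 0.241% of all tested genes were called higher and 1.75% lower. At an unadjusted p below 0.05 there were 2 of 67 and 2197 of all 13279 tested genes. The median log2 fold change was -0.04, against -0.26 over all tested genes, and after a median-ratio rescaling that brought the latter to -0.02 it was 0.25, so that its sign depended on the scaling. With the span slope in the model 6 were called lower, a count with no share over all genes beside it. The median was then -0.14, against -0.15 over all genes. The genes with the smallest p were RPS26, RPS27L and RPL3. RPS27L, in mammals a p53-responsive relative of RPS27, stood at 105, 185 and 252 TPM in HASN and at 208, 217 and 266 TPM in HASI (0.43, SE 0.19, limma adjusted p = 0.271). RPL3 had a log2 fold change of -0.20 (SE 0.10, limma adjusted p = 0.322).

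The lines were not shown to differ in their response to injection. In the interaction of line and injection 0 of 67 genes were called by limma, as were 0% of all 13279 genes. At an unadjusted p below 0.05 there were 23 of the 67 and 606 of all genes. The median interaction was -0.42, against 0.12 over all genes, and 64 of the 67 estimates were below 0. With the span slope in the model 0 were called and the median was -0.22, against -0.08 over all genes. RPL4 had the smallest p (-0.46, SE 0.16, limma adjusted p = 0.750), followed by RPL7 (-0.39, SE 0.15) and RPS4X (-0.46, SE 0.18) at the same adjusted p. The interaction uses all 4 groups, including the LASI libraries named above.

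**Figure D3:**
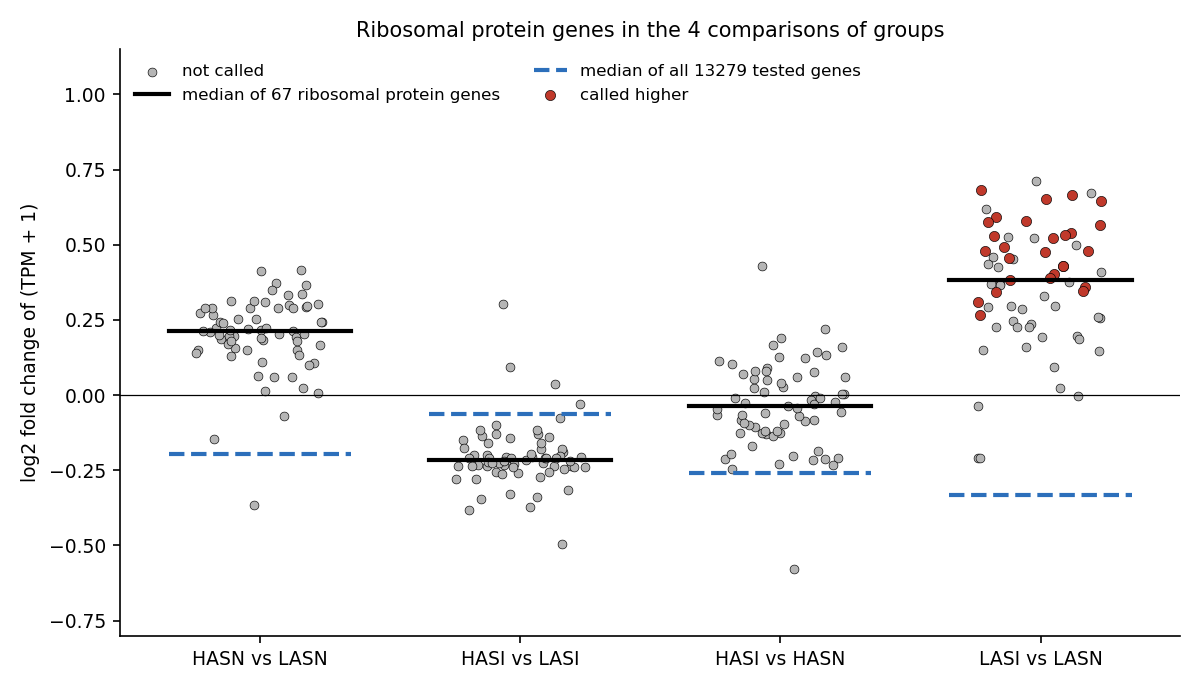
Log2 fold changes of the 67 tested ribosomal protein genes in the 4 comparisons of groups, 1 point per gene, spread sideways at random. Black lines mark their medians and dashed blue lines the medians of all 13279 tested genes. Red points are the genes called higher, which occur in LASI vs LASN (27 genes).

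Between the lines no ribosomal protein gene was called in the main fits, though most estimates shared a sign among uninjected and among injected birds. Of the 67, 0 were called between HASN and LASN by limma, where 1.17% of all tested genes were. At an unadjusted p below 0.05 there were 7 of the 67 and 1558 of all 13279 genes. The median log2 fold change was 0.21, against -0.19 over all genes, with 64 estimates above 0, and with the span slope in the model it was 0.0093 and 0 genes were called. RPL26 had the smallest p: its levels were 90.8, 97.3 and 118 TPM in HASN and 64.4, 80.9 and 91.7 TPM in LASN (0.31, SE 0.10, limma adjusted p = 0.142). RPL7L1 went the other way, with 134, 155 and 171 TPM in HASN and 159, 200.5 and 218 TPM in LASN (-0.37, SE 0.12, limma adjusted p = 0.157). RPL7 followed at 0.27 (SE 0.11, limma adjusted p = 0.307).

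Between HASI and LASI 0 of the 67 were called by limma, against 0.542% of all genes. At an unadjusted p below 0.05 there were 6 of the 67 and 993 of all 13279 genes. The median was -0.22, against -0.06 over all genes, with 64 estimates below 0. With the span slope in the model 1 was called lower and the median was -0.18, against -0.09 over all genes. RPL22L1 had the smallest p (-0.50, SE 0.14, limma adjusted p = 0.179), which passed with the span slope in the model (-0.47, limma adjusted p = 0.00940), and RPL3 and RPL6 followed at -0.28 and -0.32 (limma adjusted p = 0.363 and 0.463). These comparisons share groups with those of injection and are not independent of them.

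Averaged over injection, HAS and LAS differed in 0 of 67 genes by limma (2.60% of all tested genes). At an unadjusted p below 0.05 there were 4 of the 67 and 1651 of all 13279 genes. The median was 0.0081, against -0.14 over all genes. With the span slope in the model it was -0.076, against -0.05 over all genes, and 2 genes were called lower. RPL7L1 came nearest to the threshold, at -0.30 (SE 0.08, limma adjusted p = 0.0539), and passed it in 10 of 36 alternatives, the span slope (-0.26, limma adjusted p = 0.0180) and 5 of the single libraries left out (HASI replicate 2 or 5, HASN replicate 5, LASI replicate 4 and LASN replicate 1) among them. Over all 36 its adjusted p ran from 0.0180 to 0.557. RPS16 followed at -0.19 (SE 0.07, limma adjusted p = 0.186).

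Averaged over lines, 11 of 67 genes were higher after injection and 0 lower, against 2.33% and 38.8% of all tested genes. They included RPL22L1 (0.40, SE 0.10, limma adjusted p = 0.00790), RPS24 (0.36, limma adjusted p = 0.00926), RPS15A (0.42, limma adjusted p = 0.0157), RPL21 (0.29), RPL22 (0.42), RPL29 (0.41), RPL27A (0.22), RPS12 (0.29), RPS10 (0.31) and RPS20 (0.30). The median was 0.16, against -0.29 over all tested genes. With the span slope in the model it was -0.05, against -0.10 over all genes. In that fit 0 were called higher and 7 lower, counts with no share over all genes beside them. RPL22L1 was then at 0.22 (limma adjusted p = 0.0533). In the fit without the slope and without LASI replicates 4 and 5, 2 were called higher. Leaving out 1 library gave 4 (without HASN replicate 4, 5 or 6, LASI replicate 2, 4 or 5, or LASN replicate 4 or 6), 5 (HASI replicate 1, 2 or 5), 6 (LASN replicate 5), 18 (HASN replicate 3), 21 (HASN replicate 2) and 25 (LASI replicate 6), and otherwise 8 to 15. The average pools a line in which 27 genes were called with one in which none was.

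Expressed relative to the median of the ribosomal proteins in the same library, RPS26 stood out. This scale removes a shift of the same size in all of these genes, but not one whose size differs between genes. RPS26 (ENSGALG00000048612, chromosome 33, 7062644 to 7064200) encodes a small-subunit protein at the mRNA exit side, which in yeast can be released from finished ribosomes under stress. On this log2 scale it stood at 0.34, 0.54 and 0.78 in HASN (lowest, median, highest bird) and at -0.13, 0.00 and 0.15 in HASI. In LASN it stood at 0.33, 0.48 and 0.71, and in LASI at -0.11, 0.06 and 0.15. Every one of the 12 injected birds thus lay below every one of the 12 birds that were not injected. The share of all tested genes with that separation over both lines is not given. The separation is thus a description, not shown to be particular to RPS26 among all genes. Within lines, 0.851% of all tested genes in HAS and 1.92% in LAS were lower without overlap on this scale.

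The difference passed the test in each line. It was -0.56 (SE 0.10, limma adjusted p = 0.00690) in HAS, where RPS26 was the 1 gene called of 67 and 0.173% of all genes were called lower on this scale. It was -0.47 (SE 0.10, limma adjusted p = 0.0109) in LAS, where 54.9% of all genes were called lower on this scale. Averaged over lines it was -0.52 (SE 0.07, limma adjusted p = 9.75e-05), a 1.43-fold lower level relative to the other ribosomal proteins. On that average 40.3% of all genes were called lower on this scale. With the span slope in the model the values were -0.62 in HAS (limma adjusted p = 2.31e-05) and -0.63 in LAS (limma adjusted p = 0.000112). The HAS call was lost when only the HAS groups were fitted (adjusted p = 0.101) or without the trend and robust settings (0.0609), and the LAS call without LASI replicates 4 and 5 (-0.49, adjusted p = 0.0601).

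In TPM the same gene showed less. It stood at 847, 1327 and 1952 TPM in HASN and at 706, 900 and 1082 TPM in HASI (-0.58, SE 0.22, limma adjusted p = 0.208, but -0.76 and 2.37e-05 with the span slope in the model), and at 856, 989.5 and 1474 TPM in LASN and 636, 1101 and 1478 TPM in LASI (-0.04, SE 0.22, limma adjusted p = 0.911). The groups overlapped in TPM in both lines.

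Within groups the relative level of RPS26 also moved with the library measures. With group means removed its r was -0.86 with the span slope and 0.67 with the mitochondrially encoded share (n = 24). The mitochondrially encoded share was 17.5% ± 4.53 in HASN and 27.8% ± 6.86 in HASI. The part of these measures in the difference between groups was not tested, apart from the fits with the span slope given above.

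**Figure D4:**
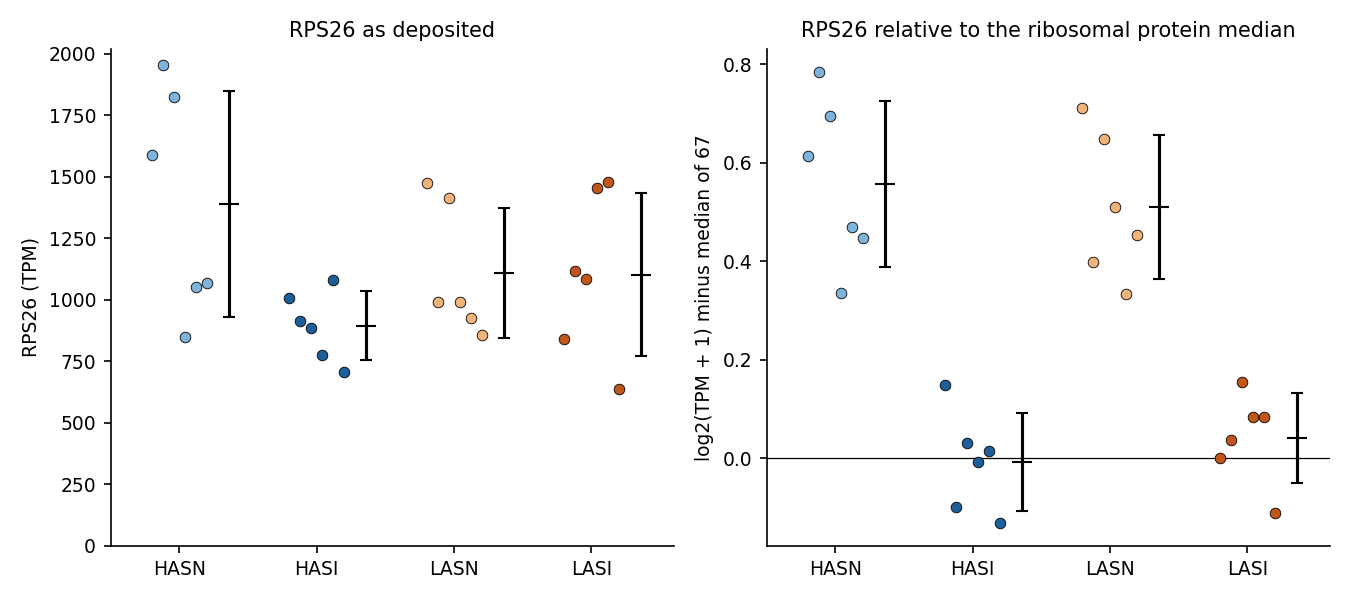
RPS26 in the 24 birds, in TPM (left) and as log2(TPM + 1) minus the median of the 67 ribosomal protein genes of the same library (right), with group means and SDs. On the relative scale the 12 injected birds lie between -0.13 and 0.15 and the 12 others between 0.33 and 0.78.

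Other genes departed from the common course in 1 line or on average. In LASI vs LASN, on the relative scale, 1 gene was called higher and 7 lower, against 0.188% and 54.9% of all genes, so the number called lower is below the background. RPS15A was the gene called higher (0.23, SE 0.09, limma adjusted p = 0.0376), and its relative levels in LASI, -0.95 to -0.71, did not overlap those in LASN, -1.14 to -0.97. No other gene of the 67 was higher without overlap in that comparison, and 0.0678% of all genes were. Beside RPS26, the genes called lower were RPL11 (-0.43), RPS19BP1 (-0.64), RPL7L1 (-0.64), RPS16 (-0.41), RPL31 (-0.24) and RPL12 (-0.34). All but RPL31 are genes whose r with the common course was below 0.6. With the span slope in the model 0 were called higher and 2 lower, and RPS15A was at 0.20 (limma adjusted p = 0.208). Without LASI replicates 4 and 5 none of the 67 was called. Leaving out LASI replicate 2, 4 or 5 or LASN replicate 2, 5 or 6 gave 1, leaving out LASN replicate 4 gave 2, and leaving out LASI replicate 6 gave 14. RPS26 and RPS21 were lower without overlap in LAS and RPS26, RPL35 and RPS14 in HAS, against 1.92% and 0.851% of all genes.

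Averaged over lines on the relative scale 4 genes were higher and 5 lower, against 0.678% and 40.3% of all genes. The higher ones were RPS15A (0.21), RPL22 (0.21), RPL36 (0.21) and RPL29 (0.20), and the lower ones included RPS26, RPL12 (-0.26), RPS14 (-0.17) and RPL35 (-0.17). These changes correspond to at most 1.20-fold apart from RPS26. Single libraries left out gave 2 to 18 calls, with 2 without HASI replicate 1, HASN replicate 4, 5 or 6, LASI replicate 4 or 5 or LASN replicate 6, and 18 without LASI replicate 6. There were 3 without HASI replicate 3 or LASI replicate 2, 4 without HASI replicate 5 or LASN replicate 4 or 5, 5 without LASN replicate 2 and 15 without HASN replicate 2. In HASN vs LASN, HASI vs LASI, the interaction and the line average 0 genes of 67 were called on the relative scale by limma, where 0.429%, 0.196%, 0% and 0.730% of all genes were. At an unadjusted p below 0.05 there were 2, 2, 1 and 1, against 1432, 388, 604 and 791 of all 13279 tested genes.

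Of the 68 genes 3 lie on chromosome Z, of which male birds carry a pair and females, which carry a W, a single copy. They are RPS6 (ENSGALG00000015082, 33736390 to 33740880), RPL17 (ENSGALG00000036774, 1077920 to 1081538) and RPL37 (ENSGALG00000014833, 12917710 to 12920908). The mean log2(TPM + 1) of chromosome W genes was 2.16 to 3.14 in 13 libraries and 0.144 to 0.414 in the other 11. Libraries of the former kind numbered 3 of 6 in HASN, LASN and LASI and 4 of 6 in HASI.

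RPS6 and RPL17 followed this level. RPS6 stood at 978 to 1525 TPM (median 1328) in the 13 libraries with W expression and at 2120 to 2899 TPM (median 2448) in the 11 without, and these ranges did not overlap. RPL17, a large-subunit protein near the exit tunnel, stood at 596 to 1116 TPM (median 821) and 986 to 2103 TPM (median 1413), with some overlap. RPL37 stood at 418 to 709 TPM (median 530) and 480 to 990 TPM (median 671). Relative to the ribosomal protein median none of the 3 overlapped: RPS6 was at 0.16 to 0.95 against 1.01 to 1.76, RPL17 at -0.30 to -0.01 against 0.59 to 0.85, and RPL37 at -0.82 to -0.60 against -0.54 to -0.19. RPS20 on chromosome 2, shown for comparison, was at 1.02 to 1.24 and 0.96 to 1.17. The share of all tested genes that separated these libraries without overlap is not given, so the separation is a description.

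In the fit of the W level within groups, the log2 slope per unit of W level was -0.36 (SE 0.04, limma adjusted p = 3.38e-07) for RPS6 and -0.39 (SE 0.04, limma adjusted p = 3.53e-06) for RPL17. These were 2 of 67 called lower, with 0 higher, against 0.693% and 0.429% of all tested genes. RPL37 had a slope of -0.19 (SE 0.05, limma adjusted p = 0.0518) and passed the threshold in 9 of 35 alternatives. Of the other 597 tested genes on chromosome Z, 90 or 15.1% were called lower, with a median slope of -0.07, and of the other 64 ribosomal protein genes 0 were called in either direction, with slopes of -0.09 to 0.08. The number of such birds was the same in LASI and LASN and in HASN and LASN, and differed by 1 where HASI was compared. The log2 fold changes of RPS6 were 0.15 (SE 0.28) in LASI vs LASN and -0.25 (SE 0.28) in HASI vs HASN.

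**Figure D5:**
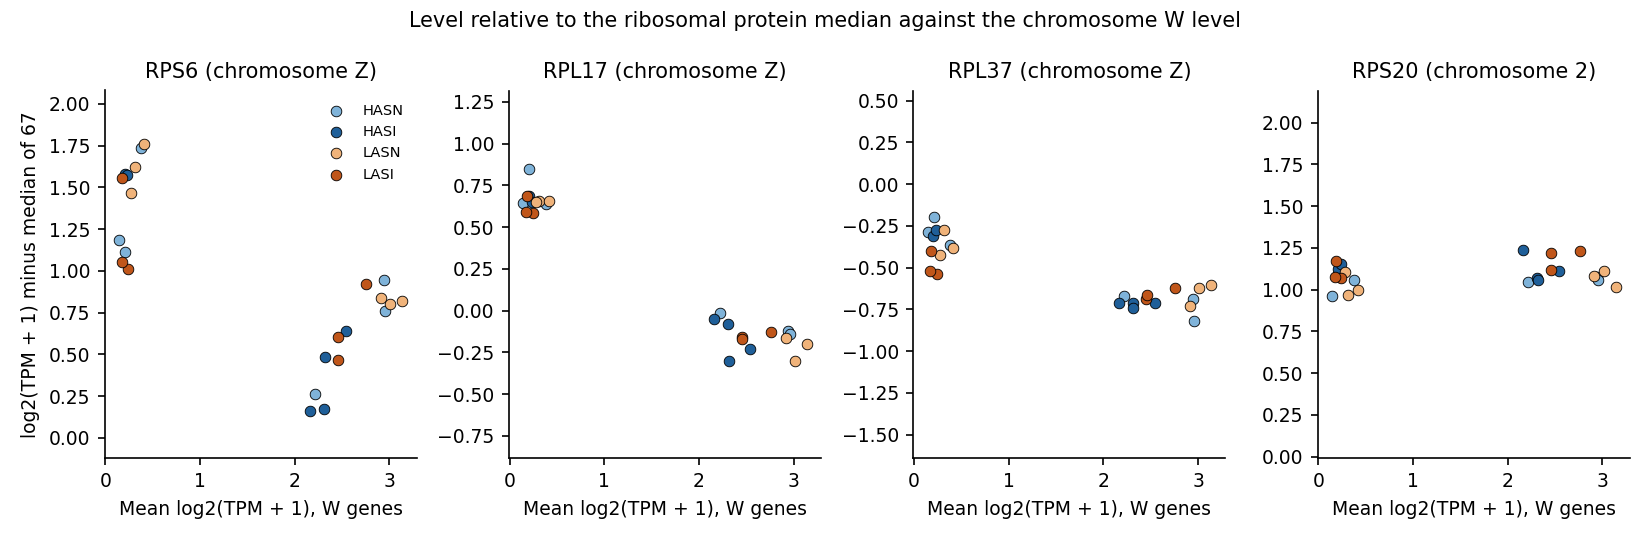
Log2(TPM + 1) minus the median of the 67 ribosomal protein genes (vertical axes) against the mean log2(TPM + 1) of chromosome W genes in the same library, 1 point per bird. The Z-linked RPS6, RPL17 and RPL37 are lower in the 13 libraries with W expression, and RPS20 on chromosome 2 is shown beside them.

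Other genes of protein synthesis were counted in LASI vs LASN, where 2.18% of all tested genes were called higher and 28.9% lower. These lists were counted without the span slope in the model. Of 16 elongation factors and other mRNAs of the kind that start with a pyrimidine tract in mammals, 2 were higher, NACA (0.56, limma adjusted p = 0.0228) and EEF1D (0.42, limma adjusted p = 0.0299), and 0 were lower, with a median of 0.05. Of 25 initiation factors 3 were higher and 3 lower, with a median of -0.16. EIF5B, which joins the subunits, and EIF3J, which binds the small subunit, rose in both lines: by 0.91 and 0.63 in LAS (limma adjusted p = 0.0120 and 0.00693) and by 1.02 and 0.60 in HAS (limma adjusted p = 0.0132 and 0.0146).

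Of 33 ribosome biogenesis genes 2 were higher and 4 lower in LASI, with a median of 0.03. UBTF, which activates transcription of ribosomal RNA genes, fell in both lines, by 0.59 in LAS (limma adjusted p = 0.00223) and 0.67 in HAS (limma adjusted p = 0.000617). Of 70 mitochondrial ribosomal protein genes 4 were higher and 1 lower, with a median of 0.19. A mixed list of 17 genes held TOR pathway genes and RPS6K kinases, not all of which act on ribosomes. Of these 0 were higher and 10 lower, with a median of -1.04, RICTOR (-2.16, limma adjusted p = 0.0127) and RPTOR (-0.74, limma adjusted p = 0.0200) among them. Over all tested genes the median was -0.33, and 2.18% were called higher and 28.9% lower.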

How the data were processed

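RNA was sequenced from 24 jejunum samples, 1 library per bird and 6 per group. The authors deposited 1 table of TPM for 15618 genes. That unit is inferred, since the columns hold fractional numbers and share 1 total to within rounding. The build was galGal6, per the submitters' processing notes; aligner, counting tool and annotation release are not given in the sources used here. Without counts no counting interval can be computed.

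From the TPM values, the 13279 genes that reached 0.5 TPM in 6 or more libraries were tested on log2(TPM + 1), so fold changes of low genes are understated. All 24 libraries were fitted with limma 3.58.1 in R 4.3.3, 1 mean per group, trend and robust moderation, 20 residual degrees of freedom, and Benjamini-Hochberg adjustment over all tested genes in each contrast. The same fit was run after subtracting the median of the 67 tested ribosomal protein genes from each library, and with the mean level of chromosome W genes as a term. Descriptions and figures used Python 3.11.15, pandas 2.3.3, numpy 2.4.6 and matplotlib 3.10.9. Symbols were looked up in RefSeq (GRCg7b): 64 of 68 matched as symbols, 3 as synonyms only and 1 not at all.

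A naming rule took called genes (at most 10 a contrast, or the 3 with the smallest p), the 6 highest and 6 lowest in level, paralogues and partners, the 3 most and 3 least variable, genes called on the relative scale, and Z-linked genes. RPL31, RPL12, RPL35, RPL36, RPS14 and RPS21 complete counts of called or non-overlapping genes and were partly chosen after their values were seen. A few genes that the rule or the lists take are counted but not reported by name here. The members and lists were chosen with earlier results of these data known. The procedure was also run on simulated data. Its outcome is not given here, and it does not measure how reliable the reported calls are. Of the 276 pairs of libraries 0 were identical. Alternatives tried were other scalings, filters, pseudocount, moderation, covariates, the groups compared only, a replicate block and omitted libraries.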

Additional observations from a re-analysis of the deposited data

Results flagged for a closer look

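RPL3L, the ribosomal protein gene with the lowest level, stood at 1.66 TPM in HASN replicate 3, whereas the other 5 HASN birds lay between 0 and 0.394 TPM. The gap to the nearest bird was 0.763 of the range of the group, above Dixon's critical value for 6 samples. It was the 1 case among 160 groups of values looked at, and chance alone gives about 1 in 20 in such a check. RPL3L was not tested in any comparison.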

How the results depend on the processing

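TPM keeps no depth, so counting error is unknown, and the scale is relative: median-ratio rescaling moved the median of all tested genes in LASI vs LASN from -0.33 to 0.03. Of the counts, medians and shares under all settings 748 stayed and 89 moved, and of the values of named genes 1592 stayed, 244 lost and 22 gained their call and 1 reversed. The rule for stayed was wide: a median stayed if it shifted by less than 0.29, and a count if it kept within a set ratio. By it the HASN vs LASN median, 0.21 and 0.0093 with the span slope, stayed. So did that after injection on average, 0.16 and -0.05. The causes were not tested, and the counts of called genes below stand without the share over all tested genes.

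With median-ratio rescaling 48 genes were called in LASI vs LASN and 38 after injection averaged over lines, with medians of 0.81 and 0.52, RPL3 in HASI vs HASN turned to 0.089, and the summed share was 6.98% in HASI and 4.39% in LASN. Without mitochondrially encoded genes the shares were 7.61% (HASN), 8.23% (HASI), 6.24% (LASN) and 8.98% (LASI), with 30 genes called after injection averaged over lines and 1 between lines. With the span slope as a covariate 1 gene was called in HASI vs LASI, 6 in HASI vs HASN, 2 in LASI vs LASN (median 0.069), 2 between lines on average, 7 after injection on average and, on the relative scale, 2 in LASI vs LASN. The chromosome W level as a covariate, no moderation, and the omission of LASI replicates 4 and 5 (these last 2 settings were chosen after seeing the data) gave 1 between lines on average.

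Without LASI replicates 4 and 5 there were 0 in LASI vs LASN and 2 after injection on average, and on the relative scale 0 and 1. Without LASI replicates 4 and 6 there were 17 on the relative scale after injection on average. On that scale HASI vs HASN gave 0 with only the groups compared, 0 with no trend and no robust settings and 2 with no moderation. LASI vs LASN gave 4, 4 and 19 in the same order. Injection on average gave 5 with no filter, 2 with no trend and no robust settings and 20 with no moderation.

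Leaving out 1 library at a time gave 4 to 49 genes in LASI vs LASN, 0 to 1 between lines on average, 4 to 25 after injection on average and, on the relative scale, 1 to 14 in LASI vs LASN and 2 to 18 after injection on average.

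Replicate numbers recur in all groups. Over 36 pairs of same-numbered libraries the deviations from group means had an r of -0.57 to 0.79 (median 0.02), and 17 pairs were above 0.1. These values show no pairing of the birds by number. They cannot exclude one, since other differences between libraries also enter the deviations. With the replicate number as a block 1 gene was called between lines on average, and 39 instead of 27 in LASI vs LASN.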
